A study of Ovis aries with 6 samples.

Results

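Connexin 43 and connexin 26 are gap junction proteins. Their 2 genes were followed among 477 named genes, on 7 of the array's 15008 distinct probes. The study's annotation names 2 probes, A_70_P016371 and A_70_P016372, as Connexin 43 through a RefSeq transcript that the RefSeq gene table lists as GJA1. The other 5 belong to GJB2, the gene of connexin 26. Of these, A_70_P016856, A_70_P016857, A_70_P030086 and A_70_P030087 carry the RefSeq transcript of GJB2 on the array, and A_70_P006901 carries an expressed sequence tag that the study's annotation assigns to GJB2. On the sheep assembly ARS-UI_Ramb_v3.0, by the order of genes in RefSeq, GJB2 lies next to GJB6, another connexin gene, and GJA1 lies between HSF2 and TBC1D32.

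Full-thickness skin was taken in winter from Aohan fine wool sheep aged 16 months, a ram and ewes that shared a sire and were reared in pens. Body side skin bears wool and groin skin does not, and both areas came from the same animals, with 3 Cy3-labelled arrays per area. The sheep that an array came from is not stated. The comparison asks which skin genes differ between a wool-bearing and a bare area, and a fold change below is body side over groin.

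Connexins assemble into rings in the cell membrane, and rings of neighbouring cells dock to form channels through which ions and small molecules pass. Connexin 43 is the most widely distributed member of the family. In skin it is found in keratinocytes, in the hair follicle including the dermal papilla, and in dermal and vascular cells. Connexin 26 in skin is found in the hair follicle and sweat gland epithelium and rises in epidermis that is proliferating. Its gene is best known for inherited deafness and for skin disorders with thickened epidermis.

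Between 79.6% and 92.3% of spots were well above background on the groin arrays, highest on groin replicate 1, and between 74.1% and 76.0% on the body side arrays. The median signal was 180 to 193 on the groin arrays and 97.5 to 130 on the body side arrays, and 0 spots were saturated. Correlations of array pairs over the tested probes were 0.978 to 0.996 within groin skin and 0.970 to 0.992 within body side skin. In each area replicates 2 and 3 were the closest pair. With 13929 probes tested in limma, 8.4% were called, which here means a change of 2-fold or more with a p under 0.05 after Benjamini-Hochberg adjustment. The number of arrays limits the precision, and p-values measure the spread between these arrays.

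Connexin 43 was about 19-fold less highly expressed in body side skin, by both probes. The probe A_70_P016371 had processed signals of 1857, 2680 and 2745 on groin replicates 1, 2 and 3 and of 186, 60.4 and 57.4 on body side replicates 1, 2 and 3. The probe A_70_P016372 had signals of 643, 658 and 704 on the groin arrays and of 30.9, 14.04 and 22.5 on the body side arrays in the same order. Every body side array lay below every groin array for both probes, and body side replicate 1 was the highest of its area. All 6 arrays measured both probes well above background. The size of the change depended on how signals and background were treated. The normexp alternative started from median spot signals and added an offset of 50, which narrows fold changes of dim probes. With normexp background correction the log2 fold changes were -3.60 for A_70_P016371 and -2.58 for A_70_P016372, both still called, against -4.25 for each in the main analysis.

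After quantile normalization A_70_P016371 stood at 6.84 ± 0.75 (log2, SD, n = 3) on the body side and at 11.09 ± 0.32 (log2, SD, n = 3) in groin skin. Its log2 fold change was -4.25 (standard error, SE, 0.40, limma adjusted p = 0.0092), which is 19.0-fold lower with a 95% interval of 9.70-fold to 37.3-fold. The spread of A_70_P016372 was smaller, at 4.84 ± 0.36 (log2, SD, n = 3) on the body side and 9.09 ± 0.057 (log2, SD, n = 3) in groin skin. Its log2 fold change was also -4.25 (SE 0.21, limma adjusted p = 0.0014), with an interval of 13.3-fold to 27.2-fold lower. Both of the 2 probes were called as lower, against a background of 4.87% of all tested probes called in that direction. Both took their gene name from the study's annotation of probes that it had called on these same arrays. These calls are therefore no independent evidence of a change. The 2 probes also measure 1 gene in the same samples and are not independent of each other. Arrays without overlap and lower in body side skin were found for 17.7% of all tested probes.

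The 2 Connexin 43 probes gave close log2 fold changes in the main analysis but not under every alternative. On each array the log2 difference between A_70_P016371 and A_70_P016372 was 1.61, 2.22 and 2.15 in groin skin and 2.504, 2.10 and 1.39 in body side skin. The mean of this difference was nearly the same in both areas, at 1.997 ± 0.33 in groin skin and 1.997 ± 0.57 in body side skin (log2, SD, n = 3). The areas overlapped, with p = 1 in an exact two-sided permutation test, which with 3 arrays against 3 cannot show that the probes changed alike. Besides the values with normexp correction above, array weights gave -4.83 for A_70_P016371 and -4.34 for A_70_P016372. In whole skin, fewer cells that make a transcript and less of it per cell cannot be told apart.

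GJB2 was about 2-fold more abundant in body side than in groin skin, by 3 of its 5 probes. The probe A_70_P006901 had signals of 5938, 6876 and 7124 on groin replicates 1, 2 and 3 and of 17277, 13188 and 13543 on body side replicates 1, 2 and 3. Its normalized signal was 12.66 ± 0.16 (log2, SD, n = 3) in groin skin against 13.85 ± 0.29 (log2, SD, n = 3) on the body side. Every body side array was above every groin array, a 2.28-fold difference with a 95% interval of 1.63-fold to 3.18-fold (log2 fold change 1.19, SE 0.20, limma adjusted p = 0.024).

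The probes A_70_P030086 and A_70_P030087 were both 2.13-fold higher in body side skin. The signals of A_70_P030086 were 444, 532 and 556 in groin skin against 1056, 551 and 646 in body side skin. Those of A_70_P030087 were 393, 482 and 487 in groin skin against 939, 478 and 550 in body side skin. Before normalization body side replicate 2 thus overlapped the groin arrays for both probes, and after it no body side array did. Their log2 fold changes were 1.09 (SE 0.23, limma adjusted p = 0.034) and 1.09 (SE 0.23, limma adjusted p = 0.036). In body side skin replicate 1 held the highest value of each of the 5 GJB2 probes.

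A_70_P016856 was 1.98-fold higher, just under the fold threshold, and was not called (log2 fold change 0.98, SE 0.27, limma adjusted p = 0.057). Its signals were 641, 876 and 872 in groin skin against 1644, 896 and 917 in body side skin, and after normalization the areas did not overlap. Of the 5 GJB2 probes 3 were called as higher, against a background of 3.53% of all tested probes. All 5 had a log2 fold change above 0, as did 55.2% of all tested probes. For 4 of the 5 the normalized arrays did not overlap, which held in that direction for 25.6% of all tested probes. These counts include A_70_P006901, which was named through the study's annotation of probes that it had called on these same arrays. Of the 4 probes that carry the RefSeq transcript of GJB2, 2 were called as higher. The 5 probes measure 1 gene in the same samples and are not independent of each other. The counts beside the shares of all probes are therefore only a description.

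A_70_P016857 was the GJB2 probe that disagreed with the rest. Its signals were 1533, 3327 and 2991 for groin replicates 1, 2 and 3 against 4313, 2255 and 2220 for body side replicates 1, 2 and 3, so the areas overlapped, and after normalization they overlapped too. The log2 fold change was 0.41 with a 95% interval of -0.60 to 1.43 (SE 0.42, limma adjusted p = 0.50), which still holds the values of the other probes. Set against the mean of the other 4 GJB2 probes on the same array, it stood at 0.81, 1.75 and 1.52 (log2) on the groin arrays and at 0.89, 0.63 and 0.54 on the body side arrays. The mean of this difference was lower in body side skin (-0.67), with p = 0.2 in an exact two-sided permutation test over the 20 assignments of the arrays. On the array A_70_P016857 carries the same transcript as A_70_P016856, A_70_P030086 and A_70_P030087, and the cause of the disagreement was not tested.

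**Figure D1:**
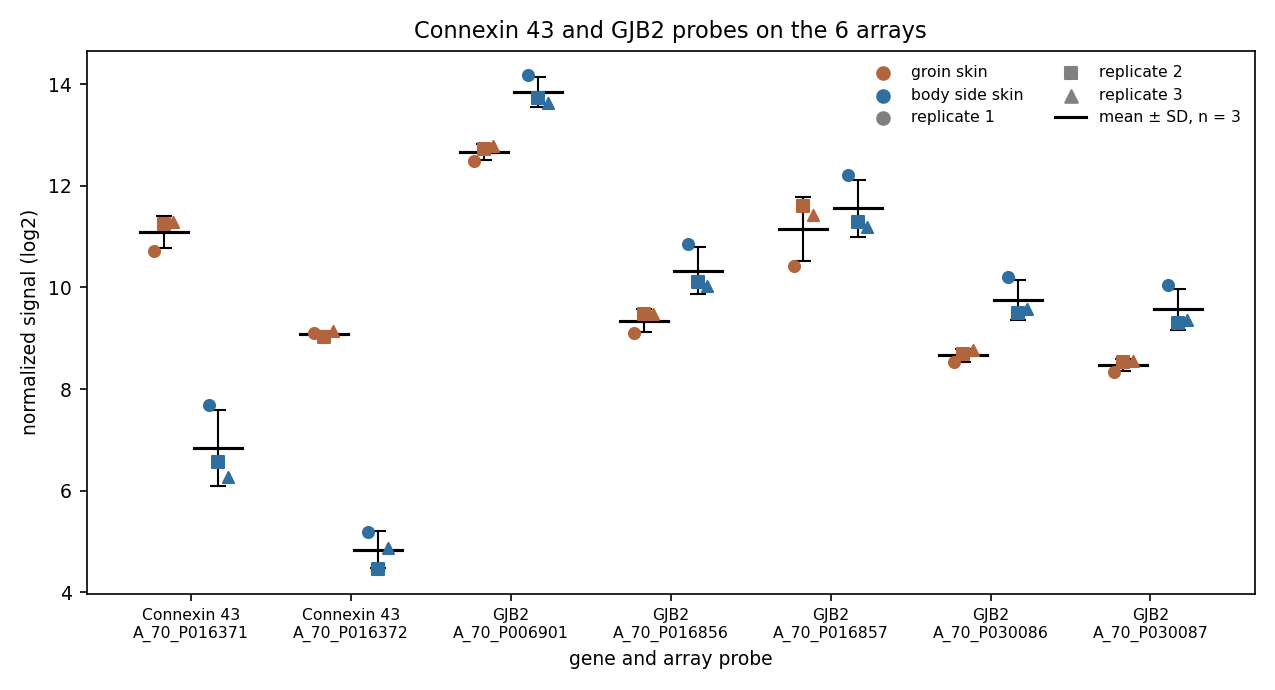
Normalized signal (log2) of each Connexin 43 and GJB2 probe on the 3 groin and 3 body side arrays, with marker shapes for the replicate and bars for the mean ± SD (n = 3), where heights of different probes cannot be compared. Both Connexin 43 probes fall by 4.25 log2 units from groin to body side without overlap, 4 GJB2 probes lie higher in body side skin without overlap, and A_70_P016857 overlaps.

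Averaged over its probes, Connexin 43 was at 9.91, 10.14 and 10.21 (log2) on groin replicates 1, 2 and 3 and at 6.43, 5.51 and 5.57 on body side replicates 1, 2 and 3. GJB2 averaged over its 5 probes was at 9.77, 10.20 and 10.20 on the groin arrays and at 11.50, 10.79 and 10.76 on the body side arrays. Within body side skin both genes were thus highest on replicate 1, and within groin skin both were lowest on replicate 1. The gene means differed by -4.25 for Connexin 43 and by 0.95 for GJB2, and each had p = 0.1 in an exact two-sided permutation test, the smallest p that 3 arrays against 3 allow.

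The contrast of the connexins within an array does not depend on a constant scaling of that array. Connexin 43 minus GJB2 was 0.14, -0.065 and 0.014 (log2) for groin replicates 1, 2 and 3 against -5.07, -5.28 and -5.19 for body side replicates 1, 2 and 3. After quantile normalization the SD of this contrast was 0.10 in both groin and body side skin (log2, n = 3), smaller than that of either gene mean in the same area. The contrast was 36.9-fold lower on the body side (log2 difference -5.20, p = 0.1 in the exact permutation test, the smallest p possible). The value near 0 in groin skin carries no meaning of its own, since signals of different probes are not on one scale. The contrast shows unequal change and not that either gene was constant. With 75th percentile scaling the difference was -5.43 and with the deposited values -5.19. Under 75th percentile scaling, a constant scaling per array, the SD of the contrast was 0.094 in groin and 0.28 in body side skin (log2, n = 3).

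**Figure D2:**
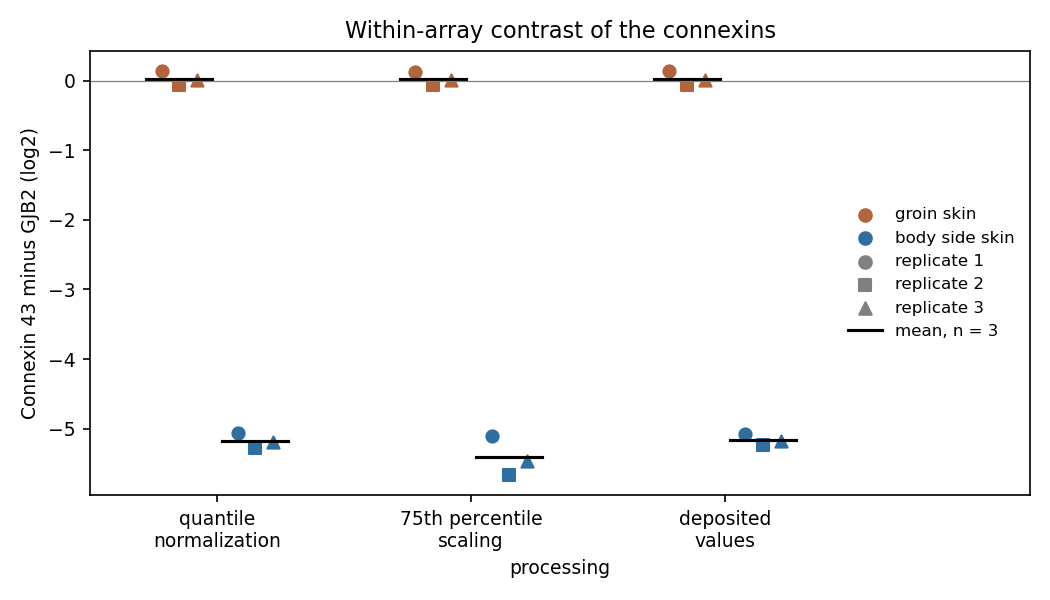
Mean of the 2 Connexin 43 probes minus mean of the 5 GJB2 probes on each array (log2), with the mean of each area as a line, under 3 ways of normalizing. The groin arrays lie between -0.065 and 0.14 and the body side arrays between -5.28 and -5.07 with quantile normalization, and the areas stay apart with the others.

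Among all tested probes, the Connexin 43 probes had the 7th and 8th lowest fitted log2 fold changes. Among the 10397 probes measured well above background on all 6 arrays they were the 4th and 5th lowest. By p-value A_70_P016372 ranked 8th and A_70_P016371 ranked 52nd of 13929. Both probes were named through the study's own calls on these arrays, so their ranks are only a description. The GJB2 probes lay nearer to the bulk of the distribution, with ranks by p-value from 497 for A_70_P006901 to 9956 for A_70_P016857. All tested probes had a median log2 fold change of 0.088 after quantile normalization and of -0.029 after 75th percentile scaling. Relative to that median the mean change of GJB2 was 0.87 and 1.03 and that of Connexin 43 was -4.34 and -4.41 in the same order. Of all calls 58.0% were lower in body side skin with quantile normalization and 75.9% with 75th percentile scaling.

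**Figure D3:**
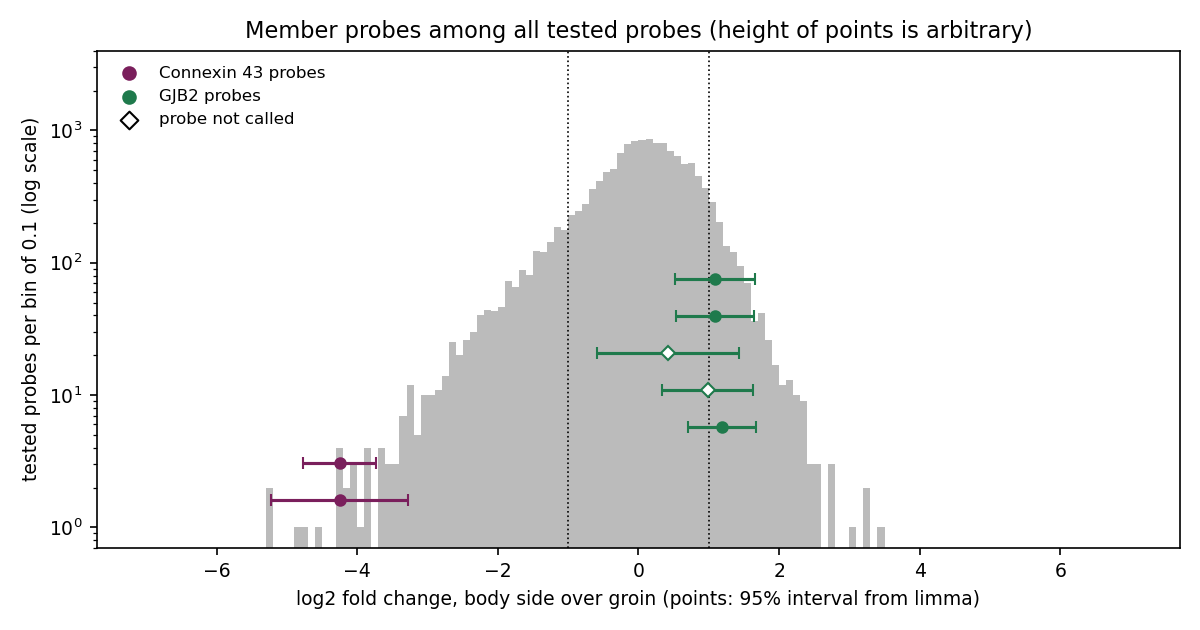
Histogram of the limma log2 fold change (body side over groin) of all 13929 tested probes on a log count axis, with the 7 member probes and their 95% intervals drawn over it and dotted lines at 2-fold changes. The Connexin 43 probes lie at -4.25 in the far left tail, and the GJB2 probes lie between 0.41 and 1.19.

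The calls rested on the number of arrays to different degrees. Over all probes, calls fell from 1170 of 13929 to 13 of 13912 without groin replicate 2 and 11 of 13911 without groin replicate 3. They fell to 44 of 13917 without body side replicate 2 and 64 of 13907 without body side replicate 3. Without groin replicate 1 there were 928 of 12391, and without body side replicate 1 there were 2939 of 13873. A lost call is thus not particular to the genes named here. A_70_P016372 was called with any single array left out, with log2 fold changes from -4.40 to -4.01. A_70_P016371 lost its call without groin replicate 2 (limma adjusted p = 0.062), without groin replicate 3 (limma adjusted p = 0.066) and without body side replicate 2 (limma adjusted p = 0.059). Its log2 fold change stayed between -4.67 and -3.89 in those 6 fits.

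The GJB2 calls were weaker. A_70_P006901 was called in the fits that left out groin replicate 1 or body side replicate 1, and in the other 4 fits its adjusted p from limma lay between 0.088 and 0.10, with log2 fold changes from 1.02 to 1.29 in all 6. A_70_P030086 and A_70_P030087 lost the call whichever array was left out. Without body side replicate 1, whose GJB2 signals were the highest, their log2 fold changes were 0.87 and 0.86, under the fold threshold, while their adjusted p from limma fell to 0.0077 and 0.0076. Without any of the other 5 arrays, groin replicate 1 included, their adjusted p was between 0.065 and 0.12.

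Spot positions in the scanner files place the arrays in 2 rows and 3 columns, as on a single slide, whereas the study's methods give every sample a slide of its own, and this difference was not resolved. The values by row and column rest on the positions. In the row with groin replicates 1 and 3 and body side replicate 2 the log2 fold changes of A_70_P016371 and A_70_P016372 were -4.44 and -4.66. In the row with groin replicate 2 and body side replicates 1 and 3 they were -4.28 and -4.00, and in the middle column, with groin replicate 3 and body side replicate 1, they were -3.61 and -3.96. Both outer columns hold a single area each. With the column as a block neither Connexin 43 probe was called (limma adjusted p = 0.18 and 0.11). Every GJB2 probe was higher in body side skin in each of these, from 0.37 to 1.11 and from 0.093 to 1.20 in the rows and from 0.79 to 1.48 in the middle column.

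**Figure D4:**
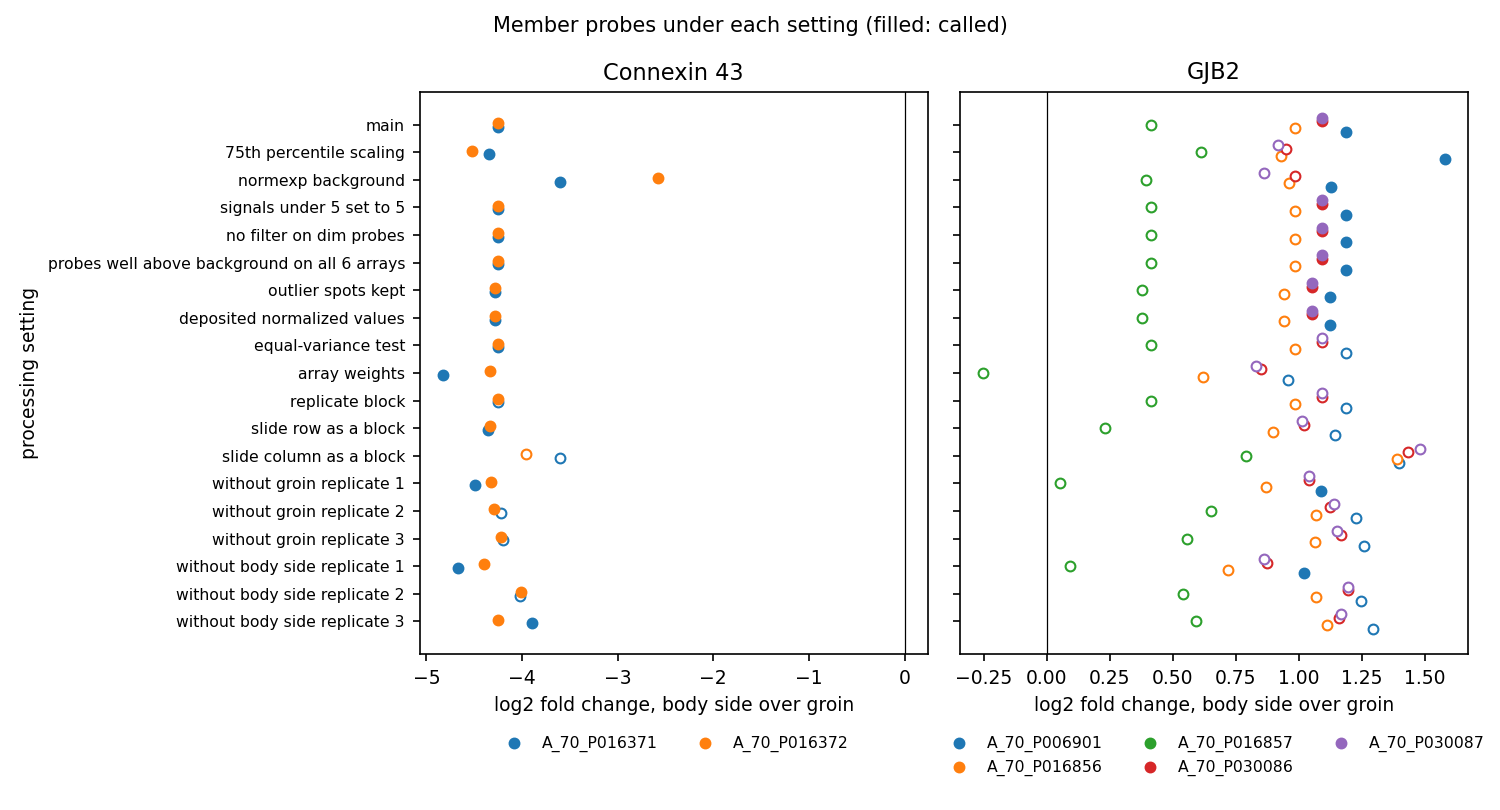
Log2 fold change (body side over groin) of each member probe under the main analysis and 18 alternatives, filled where called at a fold of at least 2 and an adjusted p under 0.05. Connexin 43 stays between -4.83 and -2.58 and GJB2 between -0.25 and 1.58, with A_70_P016857 below 0 with array weights only.

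Of a list of 24 connexin and pannexin genes, only GJB2 carries a RefSeq name on the array. Of a list of 24 known binding partners and kinases of connexin 43, 3 genes with 4 probes were identified in this way, and 0 probes were called by limma, while all 4 had an unadjusted p under 0.05, as did 37.7% of all tested probes. Their median log2 fold change was 0.83, beside 0.088 over all tested probes. YWHAE is also on that list but was not identified in this way, and is given below. PRKACA, a catalytic subunit of protein kinase A, which phosphorylates connexin 43, had log2 fold changes of 0.91 (SE 0.21, limma adjusted p = 0.042) and 0.85 (SE 0.23, limma adjusted p = 0.057), under the fold threshold. CAV1, the caveolar scaffold protein, differed by 0.81 on the log2 scale (SE 0.26, limma adjusted p = 0.081). AKT1, a survival kinase, stood at -1.62 (SE 0.58, limma adjusted p = 0.10), with the areas overlapping. Without body side replicate 1 both PRKACA probes and AKT1 were called, at 1.102, 1.04 and -2.30. No gene of the tight junction, adherens junction and desmosome lists was identified by RefSeq name.

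Further junction genes are named only by the study's annotation of probes that it had called on these same arrays, so their directions are no independent evidence and they enter no count. GJB1, the gene of connexin 32, had signals of 78.8, 47.2 and 41.2 on groin replicates 1, 2 and 3 and of 8.74, 7.31 and 7.72 on the body side arrays. None of the body side arrays measured it well above background, so it was at least 2.59-fold lower there (limma adjusted p = 0.018). With normexp background correction and its offset of 50, which narrows differences at signals this low, its log2 fold change was -0.50. The call was lost there (limma adjusted p = 0.051). A bound of this kind sets the groin mean against the lowest signal well above background on each body side array, or the probe's own value where that is higher.

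Among tight junction genes, CLDN3 and CLDN4 encode claudins, the membrane proteins that seal the space between epithelial cells. The CLDN3 probe had a log2 fold change of -1.21 (SE 0.19, limma adjusted p = 0.024) and the CLDN4 probe A_70_P059323 of -2.39 (SE 0.38, limma adjusted p = 0.023). The other CLDN4 probe, A_70_P059324, was at -2.68, not called (limma adjusted p = 0.060), and was well above background on only 1 of the body side arrays. All 3 claudin probes carry one expressed sequence tag on the array, so which claudin they measure is uncertain. With normexp correction the CLDN3 probe was at -0.50 and no longer called, the CLDN4 probe A_70_P059323 was at -1.05, and A_70_P059324 was at -1.03 and called. F11R, a junctional adhesion molecule, stood at -2.03, not called (limma adjusted p = 0.062). Without body side replicate 1 A_70_P059324 and F11R were called, at -3.53 and -2.67. The body side signals of A_70_P059324 were 67.8, 6.57 and 9.83 on replicates 1, 2 and 3. Its value of -3.53 thus rests on dim body side signals, and the size of that change is not measured.

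Adhesive junction genes moved in both directions. DSP, desmoplakin, which ties desmosomes to keratin filaments, was lower (log2 fold change -1.33, SE 0.33, limma adjusted p = 0.048). CTNND1, the cadherin-binding p120 catenin, was well above background on none of the body side arrays and was at least 2.62-fold lower (limma adjusted p = 0.030). With normexp correction CTNND1 was at -0.14 (limma adjusted p = 0.62), and the call was lost. Its groin signals of 46.8, 70.2 and 69.6 are near the offset of 50 in that correction, which narrows such a difference. DSG4, the desmoglein of the hair shaft, was higher by 1.84 (SE 0.45, limma adjusted p = 0.047). The YWHAE probes, for the adaptor protein 14-3-3 epsilon, had log2 fold changes of -3.26 and -4.04 (adjusted p = 0.0092 and 0.011 from limma).

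These calls also depended on single arrays, as did most calls over all tested probes. Those of GJB1, CLDN3, the CLDN4 probe A_70_P059323, DSP, CTNND1 and DSG4 were lost without groin replicate 2, groin replicate 3, body side replicate 2 or body side replicate 3, with adjusted p from limma between 0.081 and 0.16. That of DSP was also lost without groin replicate 1 (adjusted p = 0.077). The YWHAE probe A_70_P041297 was not called without those same 4 arrays and A_70_P041296 without 3 of them, with adjusted p between 0.056 and 0.072.

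Markers of some other skin cells differed between the areas and others did not, and their part in the results was not tested. Sums here are of normalized linear signal over all probes of a list with complete values, whether called or not. CNN1, calponin of smooth muscle, was the only one of 8 smooth muscle markers identified, and at 4506 to 7674 on the body side arrays it lay below the 12414 to 15103 of the groin arrays (log2 fold change -1.18, limma adjusted p = 0.032). Of 11 fibroblast markers 2 were identified, DCN and MMP2, with 1 of 5 probes called as lower, an MMP2 probe not well above background in body side skin. The sums were 159373 to 181851 in body side and 200728 to 233211 in groin skin. Nearly all of this sum came from DCN, whose probes were at -0.23 and -0.46 (log2) and not called.

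The sweat gland list, with AQP5, ATP1B1 and CFTR, had sums of 32685 to 44458 in body side skin and 53387 to 57681 in groin skin. Nearly all of this sum came from ATP1B1, whose probes were at -0.54 and -0.61 (log2) and not called. Both AQP5 probes went the other way, at 1.23 (called) and 0.86 (limma adjusted p = 0.034, under the fold threshold). The sebaceous list had sums of 17953 to 37578 and 36779 to 57832 in the same order, which overlap, and 1 of its 5 probes, SCD, was called as lower. The melanocyte gene TYR had sums of 238 to 310 in body side skin and 60.6 to 82.4 in groin skin. Nearly all of this sum came from the probe A_70_P008181, at 2.01 (log2) and called. The other TYR probe, A_70_P008182, went the other way, at -0.70 (log2) and not called. It was well above background on 1 groin array and 0 body side arrays. The red cell gene HBB had sums of 136 to 285 in body side skin and 27.8 to 92.7 in groin skin. Of the hair follicle list, 2 of 9 probes were called as higher, both of the keratin K38, at 3.06 and 2.14 (log2). Sums over 7 probes overlapped at 379067 to 422580 and 348421 to 392516. Nearly all of this sum came from KRT25 and KRT27, whose probes lay between -0.042 and 0.14 (log2). Both KRT35 probes, at 1.17 and 1.46, lacked values on some body side arrays and were left out of it. The PADI3 probes were at 0.87 and 0.83, and neither they nor those of KRT35 were called. For adipocytes 1 of 3 tested probes was called as lower, an LPL probe not well above background in body side skin. The adipocyte sums overlapped at 4861 to 10031 and 7490 to 12331. Nearly all of this sum came from PPARG, which is also on the sebaceous list and was at -0.52 (log2) and not called.

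Lists for skeletal muscle and immune cells had 0 called probes of 8 and 10 tested by limma. Both probes of CD3D, a T cell receptor subunit, were higher by 0.76 and 0.78 (log2) with adjusted p of 0.036 and 0.026 from limma, under the fold threshold. Other immune markers did not follow CD3D. CD3E was at 0.17 and 0.62, CD14 at -0.27 by both probes, LYZ at -0.50 and -0.57, and ITGAM at -0.032 and -1.15. None of these had an adjusted p under 0.05 from limma, and the median log2 fold change of the immune list was -0.15. No marker of basal or suprabasal keratinocytes or of endothelium was identified by name, so those cells were not followed here. As a check of the tissue, the fibroblast gene DCN and the inner root sheath keratins KRT25 and KRT27 were well above background on all arrays of both areas.

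The genes most like each connexin were sought among those with a RefSeq name and well above background on all arrays of at least one area. Likeness was Pearson's r over the 6 arrays of both areas, 395 genes for Connexin 43 and 394 for GJB2, and is given as a description. For Connexin 43 these were CREM (r = 0.996), a cAMP-responsive transcription factor, TRPM7 (r = 0.994), an ion channel fused to a kinase, AQP1 (r = 0.993), a water channel of vessels, ITGB1 (r = 0.989), the integrin beta 1 chain, and SCD (r = 0.987), a fatty acid desaturase. Their changes differed greatly in size. CREM did not reach the fold threshold, with a log2 fold change of -0.59 (SE 0.13). TRPM7 and ITGB1 were called by limma, at -2.20 (log2, SE 0.15) and -1.45 (log2, SE 0.19). AQP1 and SCD were well above background on none of the body side arrays and were at least 1.43-fold and at least 4.36-fold lower there. They entered the search through their groin values, and their r rests on body side values at background, so it is no sign of a shared pattern among the body side arrays.

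For GJB2 the most like were LOC100101238 (r = 0.996), LGALS1 (r = 0.979), which encodes galectin-1, CAPN2 (r = 0.9754), a calpain protease, RCAN1 (r = 0.955), an inhibitor of calcineurin, and NFKBIA (r = 0.938), an inhibitor of NF-kappa-B. None of these 5 was called by limma, with log2 fold changes from 0.099 for NFKBIA to 1.11 for LOC100101238. Their likeness in array order to GJB2 is what they were chosen for.

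**Figure D5:**
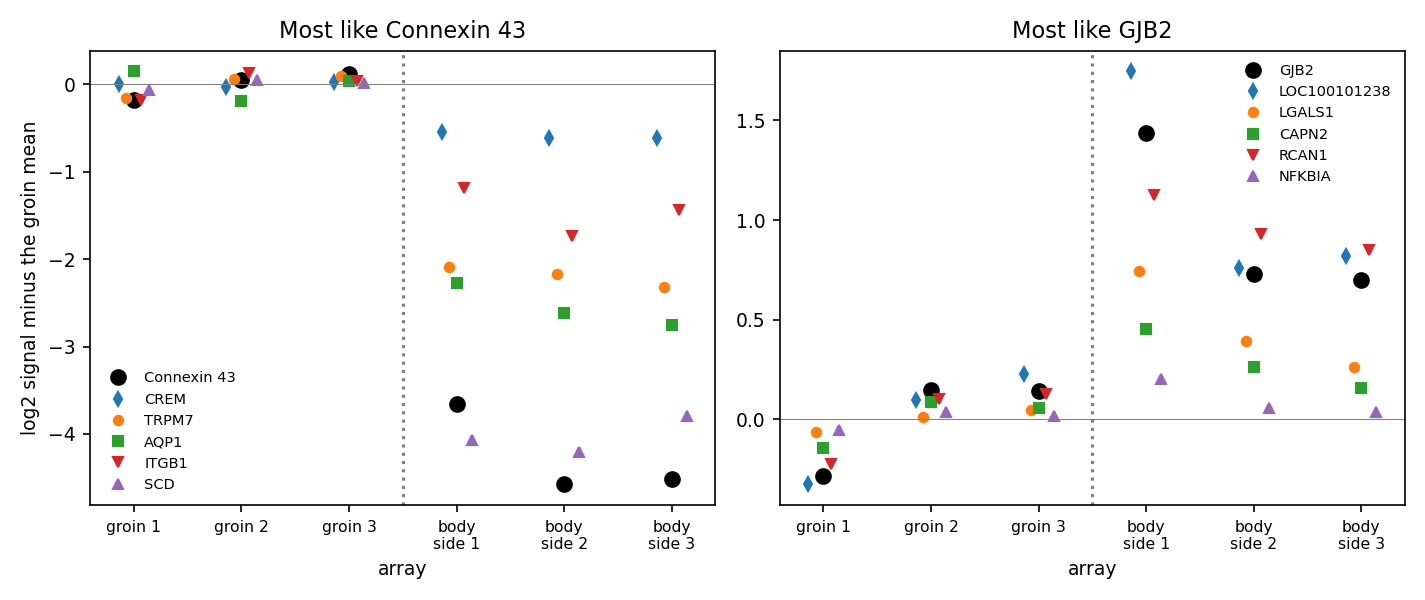
Normalized signal minus the groin mean (log2) on each array for Connexin 43 and GJB2, averaged over their probes, and for the 5 genes most like each. Connexin 43 and the genes like it are lower in body side skin, by as little as 0.59 log2 units for CREM, with AQP1 and SCD at background there, and the genes of both panels were chosen for their likeness over these arrays.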

How the data were processed

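Total RNA from 3 groin and 3 body side skin samples was labelled with Cy3 and hybridised to 1-colour Agilent sheep arrays of 15208 spots. The authors extracted the spot intensity values with Feature Extraction 10.5.1.1, per the labels, and the deposited processed signals are background-subtracted. The authors also deposited a table of normalized log2 values, made by quantile normalization in GeneSpring, which served as an alternative.

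From the processed signals, control and outlier spots were left out, spots of a probe were averaged, and log2 values were quantile normalized with limma 3.58.1 in R 4.3.3. A probe was tested if well above background on at least 1 array. The areas were compared with limma, without a pairing term, and p-values were adjusted by the Benjamini-Hochberg method over all 13929 tested probes. A call needed a fold of at least 2 and an adjusted p under 0.05. Single values were compared by exact permutation tests over 20 assignments.

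Probes were named through RefSeq accessions for 734 probes, and further junction probes and 3 member probes from the study's probe annotation. Genes named in the text are the members, the listed genes on the array and the 5 genes most like each connexin. The members and lists were chosen with earlier results of these data known. The scripts were tested on simulated data. Alternatives covered scaling, background, dim probes, outlier spots, the test, array weights, blocks and leaving out each array. The normexp background alternative used median spot signals and an offset of 50. Columns with the authors' own comparisons were not used.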

Additional observations from a re-analysis of the deposited data

How the results depend on the processing

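The direction of both Connexin 43 probes and of 4 GJB2 probes was the same under all 18 alternatives, and A_70_P016857 reversed with array weights (log2 fold change -0.25). The floor on signals, no filter on dim probes, a filter for all 6 arrays, outlier spots kept and the deposited values left the counts of connexin calls at 2 and 3. With 75th percentile scaling GJB2 had 1 call and the contrast of Connexin 43 and GJB2 was -5.43. With normexp background correction 444 probes were called, the mean change of Connexin 43 was -3.09, GJB2 had 1 call and the contrast was -3.95. An equal-variance test called 340 probes and 0 of GJB2, of which 4 had an unadjusted p under 0.05, as had 4498 of 13924 tested probes. In the main analysis 37.7% of all tested probes had such a p. Array weights gave 3367 calls, a GJB2 mean of 0.60, 0 GJB2 calls by limma and 3 calls in the junction lists. No GJB2 probe reached the fold threshold there, while 4 had an adjusted p from limma between 0.00036 and 0.0030. Their unadjusted p was under 0.05, as was that of 9404 of the 13929 probes tested in that fit.

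With the replicate number as a block limma called 8 probes, 1 of Connexin 43 (A_70_P016371 had adjusted p = 0.053) and 0 of GJB2 (4 at an unadjusted p under 0.05). In that fit 4847 of 13923 tested probes had an unadjusted p under 0.05. Arrays with the same number deviated together with correlations of 0.13, 0.073 and 0.057, and those of unlike numbers with -0.12 to 0.13. The numbers were not taken as pairs, and these ranges, which overlap, cannot decide whether they mark an animal. The slide row as a block left 52 calls (4493 of 13920 tested probes unadjusted) and 0 of GJB2 (4 unadjusted). The slide column as a block left 0 calls (1868 unadjusted), 0 of Connexin 43 (2 unadjusted) and 0 of GJB2 (4 unadjusted), with a Connexin 43 mean of -3.78 and a contrast of -5.08. Leaving out 1 array gave 11 calls without groin replicate 3 to 2939 without body side replicate 1, 1 to 2 of Connexin 43, 0 to 1 of GJB2 and 0 to 3 in the junction lists. The Connexin 43 mean then lay between -4.54 and -4.02, the GJB2 mean between 0.71 and 1.06 and the contrast between -5.30 and -5.07. The causes were not tested. Signal over background limits the size of the Connexin 43 change, most for A_70_P016372, and the dim junction genes, and 3 arrays per area limit every test.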
